A study of Mus musculus with 24 samples.

Results

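The 10 genes described here were BCL2 family members that decide between survival and death of a cell at the mitochondrion. They were taken from the deposited gene table by their symbols, 10 of 54532 genes. By role they comprised 5 pro-survival genes (Bcl2, Bcl2l1, Mcl1, Bcl2a1b and Bcl2a1d), 2 effectors (Bax and Bak1) and 3 BH3-only genes (Bbc3, Pmaip1 and Bcl2l11). In this pathway, BAX and BAK, once activated, open pores in the outer mitochondrial membrane, and cytochrome c that leaves through them starts caspase activation on APAF1. Pro-survival proteins hold BAX, BAK and the BH3-only proteins in check, whereas BH3-only proteins engage them or the effectors. In myeloid cells, MCL-1 and the A1 proteins encoded by the Bcl2a1 genes are known as short-lived survival factors whose transcripts respond to inflammatory signals.

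RNA was measured in 2 kinds of cell cultured from bone marrow: macrophages (BMDMs), made with L929-conditioned medium, and dendritic cells (BMDCs), made with GM-CSF and IL-4. Cells labelled WT came from Tmem173fl/fl mice and cells labelled CRE from Tmem173fl/flLzym-Creert2 mice, both on C57BL/6N and both given tamoxifen, so the floxed alleles and the tamoxifen were shared by all groups and only CRE cells carried the Cre recombinase. That Cre is tamoxifen-inducible and driven by the lysozyme promoter, which is active in macrophages and granulocytes and varies among dendritic cells. Tmem173 encodes STING, the receptor for cyclic dinucleotides that DMXAA activates in mouse cells. The 8 groups were each cell type and genotype label without agonist (control) or with DMXAA, with 3 libraries per group numbered 1 to 3. The series' text gives 40 µM DMXAA, while the methods give the dose in another unit, so the concentration is uncertain, and the sources used here tie no treatment time or donor age to the sequenced cultures. The labels do not say whether libraries of a group came from separate animals, so the p-values measure the spread between these libraries, which may be technical.

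Total counts lay between 15657347 and 18912887 per library. The 4 BMDM libraries numbered 3 stood apart from the other 8: their 10 macrophage markers summed to 42.52 to 71.81 CPM (counts scaled to the library's total) against at least 9891 in the others, C1qa was at 0 in all 4, and their 12 fibroblast markers summed to 15500 to 23630 against at most 821.8. They are therefore shown apart and left out of the main BMDM tests, and results with all 12 BMDM libraries are given beside them. Macrophage markers were also high in BMDCs, at 2253 to 9454 CPM, beside dendritic cell markers at 6398 to 11170. Mean Tmem173 FPKM in CRE was 78.1% of WT in control BMDMs and 35.3% with DMXAA, and 73.4% and 73.6% in BMDCs, on a gene-level count that does not resolve the deleted exons. Among BMDCs, the CRE libraries numbered 1 and 3 lay closer to WT libraries 3 and 2 than to any library of their own group (a median chi-square over sampling noise of 2.5 to 3.03, against at least 5.29 within a group), so a difference between genotype labels in BMDCs is read with that in view.

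Bcl2a1b and Bcl2a1d, the A1 genes among the 10, are near copies of one another, and the sequences just upstream of them are printed because their values are hard to separate and because they did not behave alike in BMDMs. On GRCm38, the 186 bases before each annotated gene start were read from RefSeq promoters (GRCm38.p6), at chr9:89199023-89199208 on the plus strand for Bcl2a1b and chr9:88731915-88732100 on the minus strand for Bcl2a1d. Capitals mark the AP-1 letters TGANTCA and the PU.1 letters GAGGAAGT.
Bcl2a1b: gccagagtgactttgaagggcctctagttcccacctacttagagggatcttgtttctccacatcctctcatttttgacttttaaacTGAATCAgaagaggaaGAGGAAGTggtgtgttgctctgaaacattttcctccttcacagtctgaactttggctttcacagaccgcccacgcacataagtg
Bcl2a1d: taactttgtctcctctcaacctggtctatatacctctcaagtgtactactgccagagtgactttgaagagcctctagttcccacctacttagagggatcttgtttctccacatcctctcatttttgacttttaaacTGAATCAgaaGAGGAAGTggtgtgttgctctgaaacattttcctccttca

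Over the 136 bases that the pair of upstream windows shared, they differed at 1 base outside gaps, an identity of 99.3%. Both windows held 1 AP-1 and 1 PU.1 match, on the printed strand. Of 32841 RefSeq promoters searched on both strands over 250 bases before the start, 6.75% held the AP-1 letters and 2.44% the PU.1 letters. The kappaB consensus (in 7.25% of promoters), the interferon-stimulated response element core (2.98%) and the GAS letters TTCNNNGAA (7.02%) were not present in either window. Among the other members searched (all but Pmaip1), Bcl2l1 and Bbc3 held a kappaB consensus match and Bak1 a PU.1 match. These matches describe letters and not bound sites.

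The 817-base Bcl2a1b transcript matched the Bcl2a1d transcript at 99.1% of bases, with 7 mismatches, and 56.8% of its 100-base windows also occurred in another transcript (54.7% for Bcl2a1d). How the authors' counting divided such reads is not given, so each of these genes is uncertain on its own, and their reads are also given summed with those of Bcl2a1a. The other members were nearly free of shared windows, with 9.44% for Bak1, 5.33% for Bax and 4.41% for Bcl2, and none in the rest. Exons of Bak1 overlapped opposite-strand Ggnbp1 over 25.5% of their bases, and Ggnbp1 held 7 to 59 counts per library. The strand setting of the counting is not given, so reads in that overlap cannot be assigned to a strand. Exons of Bcl2a1b were overlapped over 49.1% of their bases by same-strand Gm29094, which held 0 to 2 counts in each tested library, and those of Bax over 12.2% by same-strand Gm45808. Opposite-strand D630008O14Rik overlapped 6.09% of the exon bases of Bcl2. Whether reads in such overlaps were dropped is not given.

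**Figure D1:**
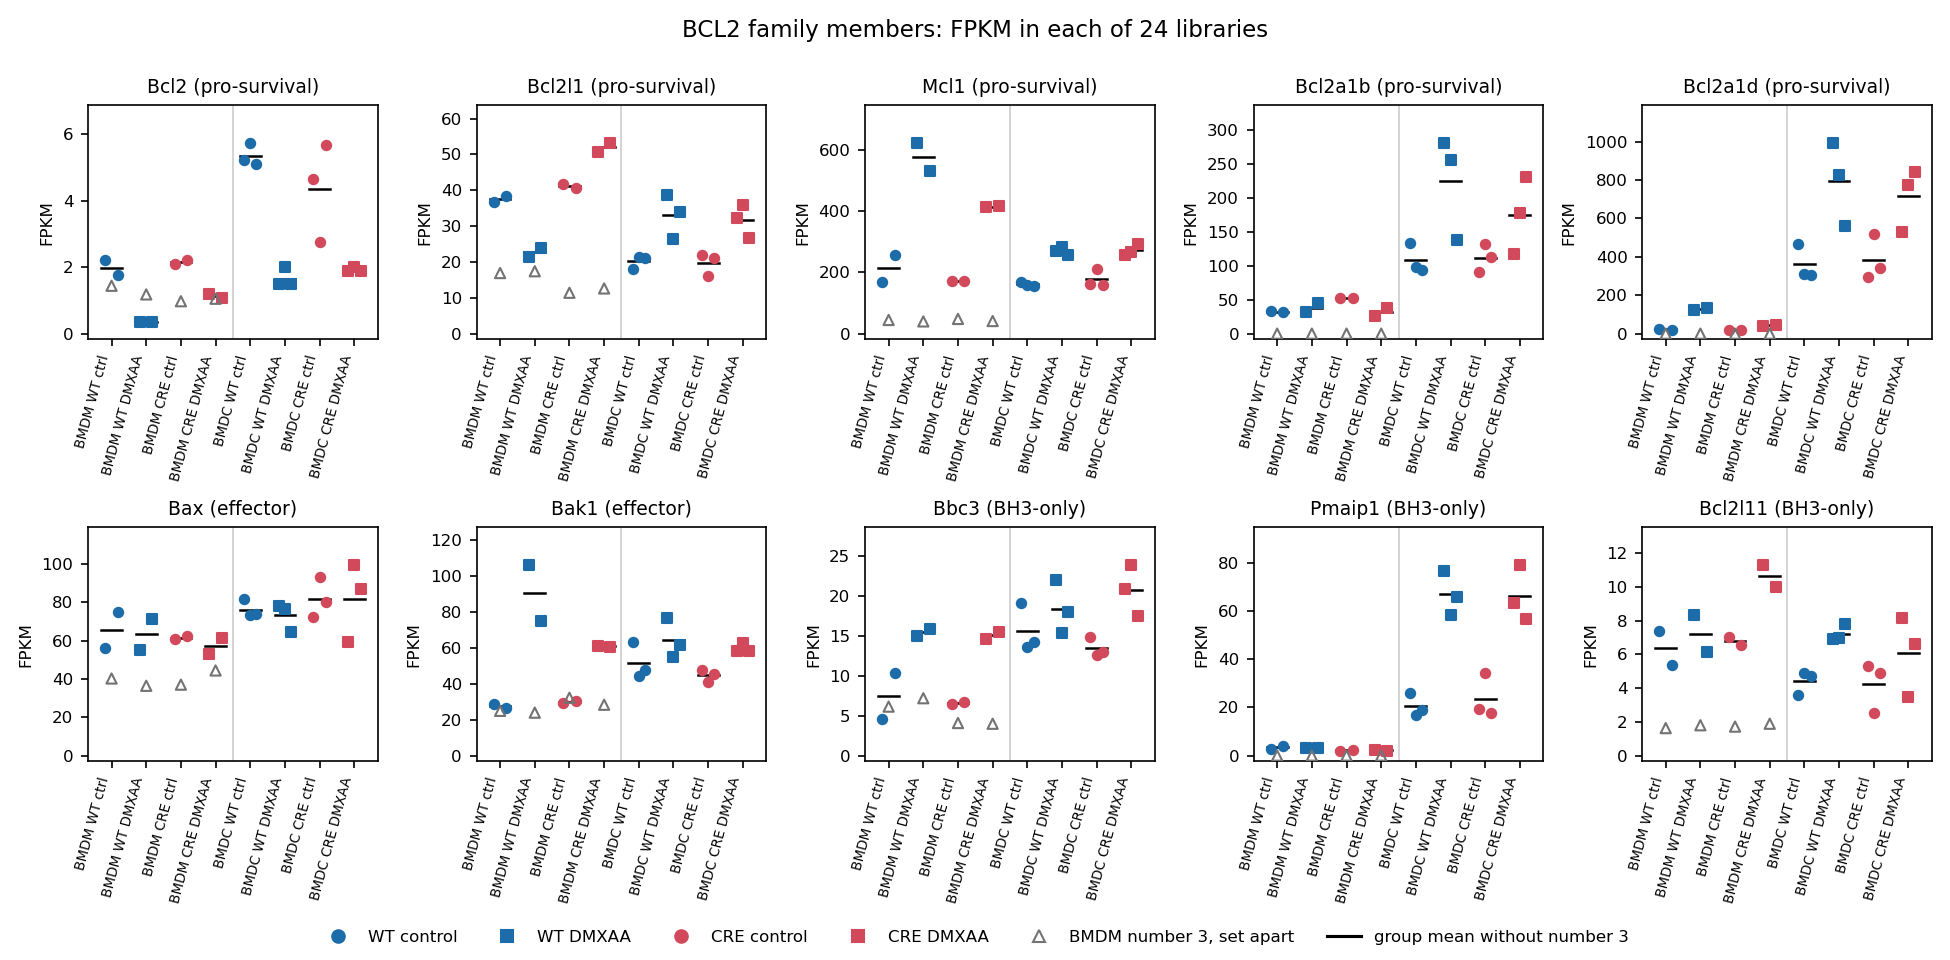
FPKM of each of the 10 genes in the 24 libraries (linear axes, 1 panel per gene), by cell type, genotype label and treatment. Filled points are the libraries tested, black lines their group means and open triangles the BMDM libraries numbered 3, where both Bcl2a1 genes and Pmaip1 lie at or near 0.

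DMXAA changed 5 of the 10 members in WT BMDMs and 4 in CRE BMDMs. In WT BMDMs, Mcl1, Bcl2a1d and Bak1 rose and Bcl2 and Bcl2l1 fell, against 39.2% of all 11569 genes tested called in either direction (18.4% higher, 20.7% lower). In CRE BMDMs, Mcl1, Bcl2a1d and Bak1 rose and Bcl2 fell, against 10% of genes (7.28% higher, 2.72% lower). In BMDCs 6 members were called under either label: Bcl2l1, Mcl1, Bcl2a1d and Pmaip1 rose and Bcl2 fell under both, Bcl2a1b rose in WT (32.2% of 12126 genes called, 17.0% higher and 15.2% lower) and Bbc3 rose in CRE (25.4%, 14% higher and 11.4% lower). Bax was not called in any of the 4 responses. Calls are Benjamini-Hochberg adjusted p under 0.05 by edgeR's two-sided quasi-likelihood test, and all 10 members passed the filter on low values in every comparison. Values below are FPKM, counts scaled by gene length and by the authors' effective library size, which tended to be lower with DMXAA. FPKM allow levels of different genes to be set side by side within a library. Changes are log2 fold changes ± SE from the counts. Whether 2 groups overlapped is a description and not a test. With 2 libraries per group, members with little change were apart too, as Bcl2l1 (0.09) and Bak1 (0.07) between CRE and WT control BMDMs. The share of all genes whose groups were apart is not given here.

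The median absolute log2 change of the members was 0.89 in WT BMDMs, 0.85 in CRE BMDMs, 0.70 in WT BMDCs and 0.61 in CRE BMDCs, where all genes tested had medians of 0.53, 0.33, 0.47 and 0.41. How the libraries were scaled mattered for the direction of many genes. Scaled by total counts, the median change of all genes with DMXAA became −0.59 in WT BMDMs (−0.08 with TMM scaling), −0.24 in CRE BMDMs, −0.36 in WT BMDCs and −0.34 in CRE BMDCs. The share of called genes that were higher moved from 47.1% to 20.4% in WT BMDMs and from 72.8% to 43.6% in CRE BMDMs, and it was 26.4% in BMDCs of either label, where TMM gave 2056 genes higher and 1848 lower in WT and 1702 higher and 1382 lower in CRE. No member called under TMM changed direction under total counts. The number called in CRE cells moved most with the fit: CRE BMDCs had 2 members called under total counts (37.2% of genes), 2 in a fit of the compared groups only (15.3%) and 4 without the libraries numbered 2 (31.4%), and CRE BMDMs had 8 in a fit of the compared groups only (55.2%). WT BMDMs had 4 in such a fit, with 1687 of 11569 genes called. Which label of BMDMs had more genes called thus depended on whether the labels shared 1 estimate of the spread. Bulk RNA cannot tell a change in the RNA of each cell from a change in the share of cells of a type.

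**Figure D2:**
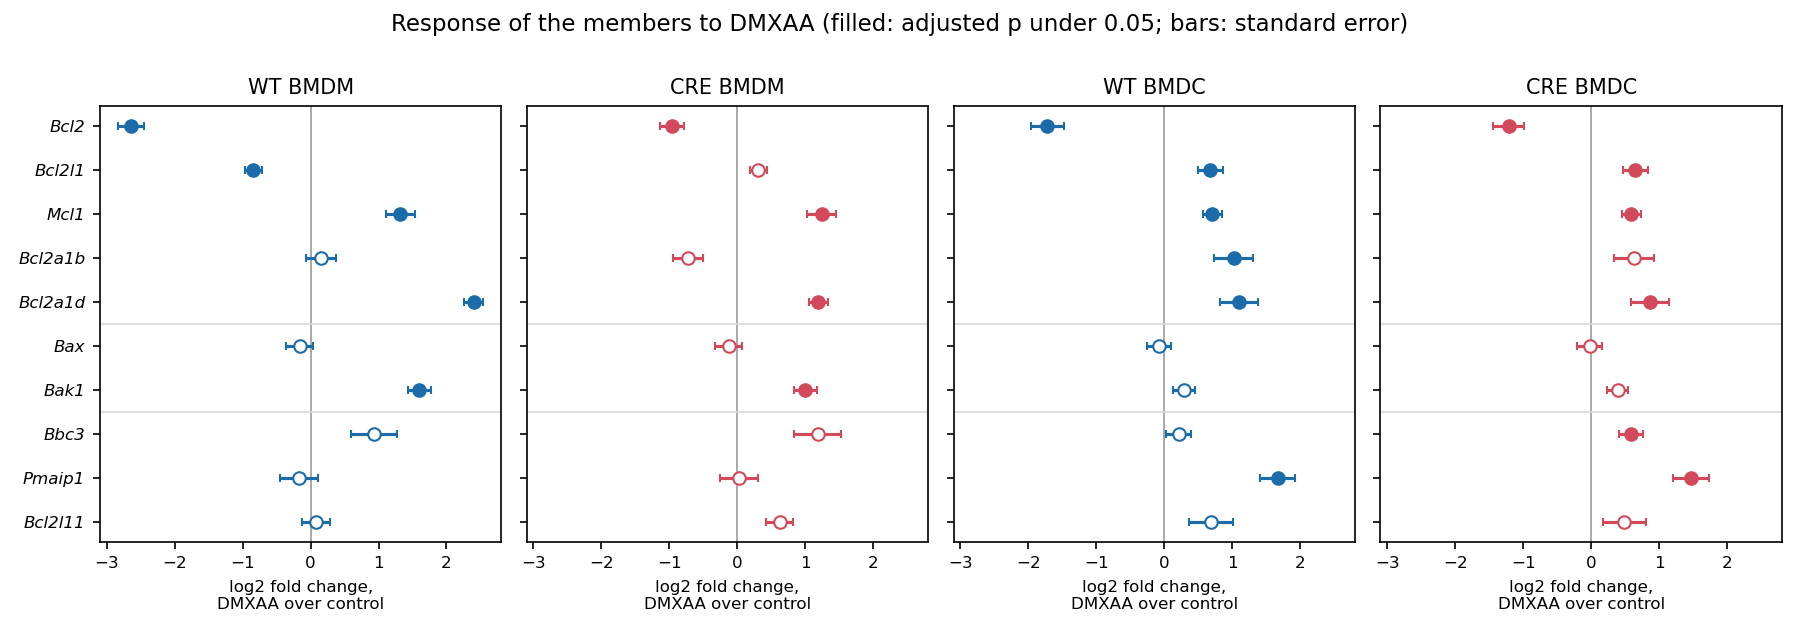
Log2 fold change with DMXAA of each member in WT and CRE BMDMs and BMDCs (horizontal axes), with bars of 1 SE and filled points where edgeR called the change. Bcl2 lies below 0 in all 4 responses, whereas Bcl2l1 lies below 0 in WT BMDMs and above it in the BMDC responses.

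Bcl2 (ENSMUSG00000057329, chromosome 1, 106538178 to 106714274, minus strand), the founding pro-survival member, was among the members with the lowest levels. It measured 2.22 and 1.75 FPKM in WT control BMDMs and 0.348 and 0.34 with DMXAA, with no overlap between the groups. It fell by 2.64 ± 0.19 on the log2 scale (6.22-fold, adjusted p = 0.000158). In CRE BMDMs it went from 2.11 and 2.22 FPKM to 1.19 and 1.08, again without overlap, and the fall was smaller (log2 change −0.96, adjusted p = 0.0203). The difference between these responses was itself called (1.68 ± 0.26, 95% interval 1.07 to 2.29, adjusted p = 0.0268).

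In BMDCs, Bcl2 measured 5.24, 5.73 and 5.1 FPKM in WT controls and 1.48, 2.0 and 1.48 with DMXAA. Under the CRE label it measured 4.64, 2.77 and 5.67 in controls and 1.88, 2.0 and 1.89 with DMXAA, the low control being number 2. Every DMXAA library lay below every control of its label. Bcl2 fell by 1.72 ± 0.24 in WT (adjusted p = 0.00027) and by 1.21 ± 0.23 in CRE (adjusted p = 0.00307). By group mean it was highest in WT control BMDCs (5.36 FPKM), which overlapped CRE control BMDCs (4.36), and lowest in WT DMXAA BMDMs (0.344), apart from the next group, CRE DMXAA BMDMs (1.13). In the BMDM libraries numbered 3 it was 0.975 to 1.44 FPKM with either treatment.

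Bcl2l1 (ENSMUSG00000007659, chromosome 2, 152780668 to 152831728, minus strand), which encodes BCL-XL, moved in opposite directions in WT BMDMs and BMDCs. In WT BMDMs it measured 36.8 and 38.5 FPKM in controls and 21.4 and 24 with DMXAA, a fall of 0.84 ± 0.12 (1.79-fold, adjusted p = 0.00214), not called in a fit of those 2 groups alone (−0.77, adjusted p = 0.0666). In WT BMDCs it measured 18, 21.4 and 21.2 in controls and 38.6, 26.4 and 34.0 with DMXAA, a rise of 0.68 ± 0.18 (adjusted p = 0.0152). The groups did not overlap in either cell type, and the interaction of cell type and DMXAA was 1.54 ± 0.25 (adjusted p = 0.00379). Under total count scaling the rise in WT BMDCs was not called (log2 change 0.31, adjusted p = 0.24), nor was it without WT control 1 or WT DMXAA 1.

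The CRE BMDMs did not show that fall in Bcl2l1. They measured 41.7 and 40.7 FPKM in controls and 50.8 and 53.1 with DMXAA, with no overlap, and the change of 0.31 was not called (adjusted p = 0.148). With DMXAA, CRE BMDMs therefore held more Bcl2l1 than WT BMDMs (log2 difference 1.24 ± 0.12, adjusted p = 0.00169), and the responses differed by 1.15 ± 0.17 (95% interval 0.76 to 1.55, adjusted p = 0.0224). In CRE BMDCs, Bcl2l1 went from 22.0, 16.1 and 21.2 FPKM to 32.2, 35.9 and 26.6 (0.65 ± 0.18, adjusted p = 0.023). That call was lost without the CRE libraries numbered 2 (0.42, adjusted p = 0.126), which held the highest neutrophil marker sums of the BMDCs (375.5 and 156 CPM, against 13.3 to 81.7), and the part of those markers in the result was not tested.

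Mcl1 (ENSMUSG00000038612, chromosome 3, 95658788 to 95663176, plus strand) was the most abundant pro-survival transcript of BMDMs. In WT BMDMs it measured 169 and 257 FPKM in controls and 621 and 529 with DMXAA, a rise of 1.32 ± 0.21 (2.49-fold, adjusted p = 0.00344). In CRE BMDMs it measured 173 in both controls and 412 and 417 with DMXAA (log2 change 1.24, adjusted p = 0.0153). No DMXAA library overlapped a control. The CRE and WT responses were not told apart, and with DMXAA the genotype labels differed by −0.42 (adjusted p = 0.203).

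Mcl1 also rose in BMDCs, by less. It went from 170, 159 and 156 FPKM to 268, 284 and 255 in WT (0.71 ± 0.14, adjusted p = 0.00298) and from 161, 210 and 160 to 256, 267 and 291 in CRE (0.59 ± 0.14, adjusted p = 0.0106), without overlap under either label. Under total count scaling the CRE call was lost (0.26, adjusted p = 0.126). Group means ran from 575 FPKM in WT DMXAA BMDMs to 161 in WT control BMDCs. The control BMDMs and BMDCs of the WT label differed by −0.46, which was not called (adjusted p = 0.055).

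Bcl2a1d (ENSMUSG00000099974, chromosome 9, 88723285 to 88731914, minus strand) showed the largest difference between WT control BMDCs and BMDMs of the 10 members. It measured 24.2 and 21.0 FPKM in WT control BMDMs against 467, 312 and 307 in WT control BMDCs (log2 difference 3.94 ± 0.33, adjusted p = 4.53e-07). With DMXAA it reached 122 and 135 FPKM in WT BMDMs (2.40 ± 0.14, adjusted p = 5.9e-05), and from 18.9 in both controls it reached 41.1 and 46.5 in CRE BMDMs (1.19, adjusted p = 0.0031). Each DMXAA library exceeded every control, and the CRE response was smaller by 1.21 ± 0.19 on the log2 scale (interaction −1.21, adjusted p = 0.0271), which was not called under total count scaling (−0.93, adjusted p = 0.0624).

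In BMDCs, Bcl2a1d rose to 992, 827 and 560 FPKM in WT (1.10 ± 0.28, adjusted p = 0.0109). In CRE BMDCs it went from 297, 519 and 341 to 532, 776 and 844 (0.87 ± 0.28, adjusted p = 0.0403). Each DMXAA library of either label lay above all 3 of its controls. The WT call was lost without WT control 2 or 3 and the CRE call held in 2 of 6 fits that left out 1 library of the comparison. Under total count scaling the CRE call was lost as well (0.54, adjusted p = 0.104).

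Bcl2a1b (ENSMUSG00000089929, chromosome 9, 89199209 to 89207827, plus strand) did not follow its near copy in BMDMs. It measured 32.8 and 31.3 FPKM in WT controls and 32.0 and 44.4 with DMXAA, and 51.7 and 52.2 in CRE controls and 26.4 and 37.1 with DMXAA. The WT groups overlapped and the CRE groups did not, and neither change was called (0.15 ± 0.22, adjusted p = 0.644, and −0.73, adjusted p = 0.0864). The CRE call depended on the fit. It was made under total counts (−0.96, adjusted p = 0.0485), by DESeq2 (−0.74, adjusted p = 0.0328) and with a block within each label (−0.75, adjusted p = 0.0319). Fits without a filter (adjusted p = 0.021) and of the compared groups only (adjusted p = 4.48e-05) made it too. It was not made by limma (adjusted p = 0.0807), with a stricter filter (adjusted p = 0.0567) or with a block on the shared number (adjusted p = 0.0524). The Bcl2a1d to Bcl2a1b ratio of FPKM went from 0.739 and 0.671 to 3.82 and 3.04 with DMXAA in WT BMDMs, and from 0.366 and 0.363 to 1.56 and 1.25 in CRE BMDMs, while in BMDCs it lay between 3.06 and 4.54. In WT BMDCs Bcl2a1b went from 134, 98.7 and 94.0 FPKM to 280, 256 and 138 (1.02 ± 0.29, adjusted p = 0.021), a call kept in 2 of 6 fits that left out 1 library and lost under total counts (0.65, adjusted p = 0.0698). In CRE BMDCs, at 90.7, 132 and 112 against 117, 177 and 231, the groups overlapped and 0.63 ± 0.29 was not called (adjusted p = 0.146).

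With the reads of Bcl2a1a, Bcl2a1b and Bcl2a1d summed, the rise with DMXAA was 1.57 ± 0.15 in WT BMDMs (adjusted p = 0.000485) and the change was 0.14 ± 0.15 in CRE BMDMs (adjusted p = 0.606). The difference of these responses was −1.43 ± 0.21 (adjusted p = 0.0249). The sum rose in WT BMDCs (1.02 ± 0.27, adjusted p = 0.0141) and in CRE BMDCs (0.81 ± 0.27, adjusted p = 0.0493), and was higher in WT control BMDCs than in WT control BMDMs by 3.44 ± 0.31 (adjusted p = 1.16e-06). The rise of Bcl2a1d in CRE BMDMs thus did not appear in the sum, from which any reads left out by the counting are still missing. In the BMDM libraries numbered 3, Bcl2a1b was at 0 in all 4 and Bcl2a1d at 0 in 3, with 1 count in the other.

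**Figure D3:**
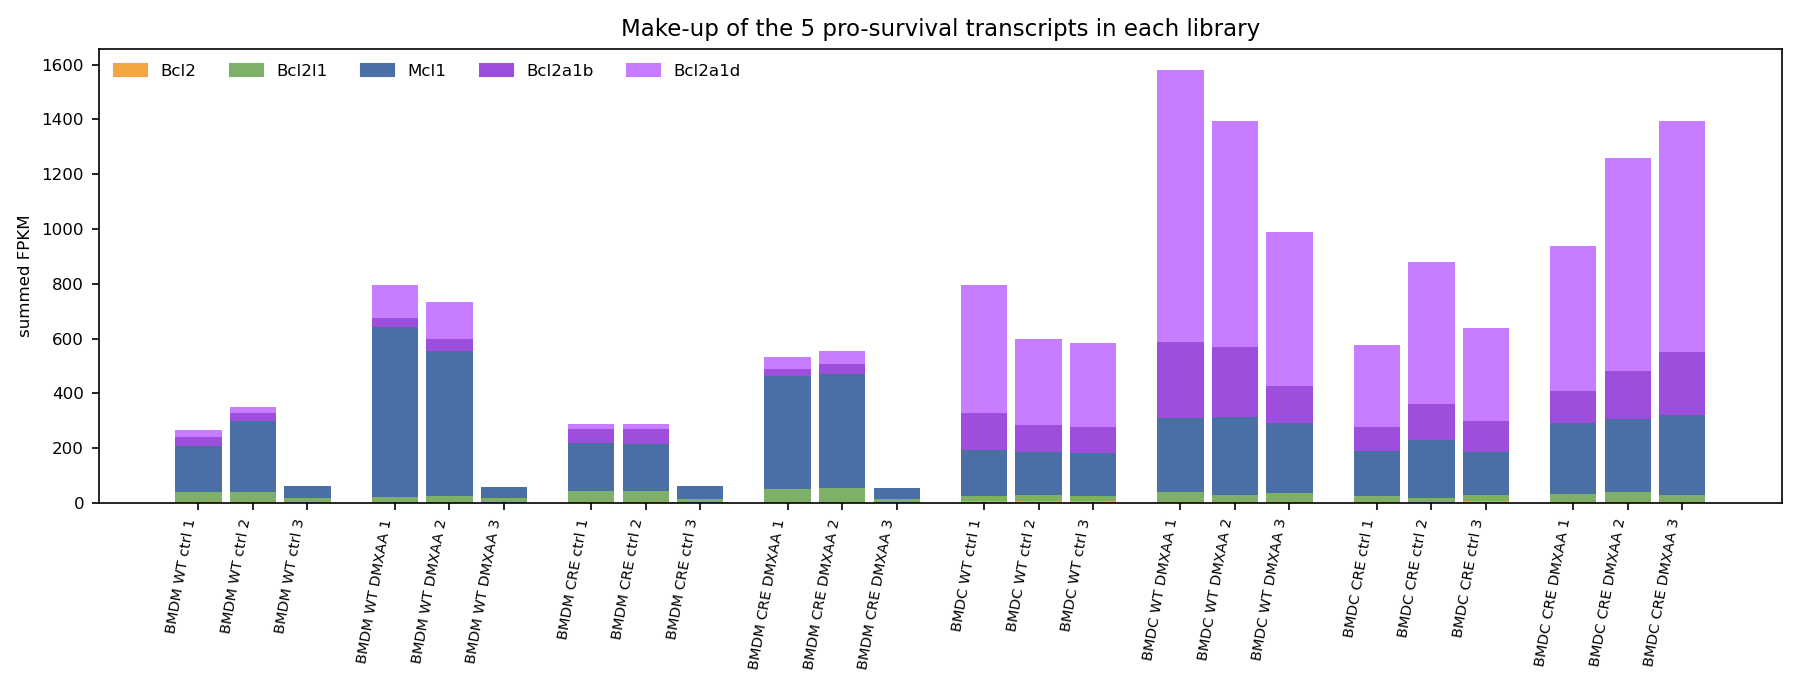
Summed FPKM of the 5 pro-survival members (vertical axis) in each of the 24 libraries, stacked by gene. Mcl1 takes 60.2 to 77.9% of the sum in the BMDM libraries numbered 1 and 2, and the 2 Bcl2a1 genes 67.4 to 80.5% in BMDCs.

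Set side by side per length, the 5 pro-survival genes summed to 265.4 and 349.3 FPKM in WT control BMDMs and to 733.1 and 797.4 with DMXAA. In CRE BMDMs the sum was 286.8 to 287.1 in controls and 531.9 to 555.1 with DMXAA, below both WT DMXAA libraries. In BMDCs it was 582.4 to 794.8 in WT controls and 987.6 to 1581 with DMXAA, and 575.1 to 878.9 and 939.6 to 1394 in CRE. The makeup differed between the cell types: Mcl1 held 60.2 to 73.5% of the sum in control BMDMs but 21.4 to 27.9% in control BMDCs, where Bcl2a1b and Bcl2a1d together held 67.4 to 75.7%. Bcl2a1a, a further A1 copy, was not among the 5 genes. It measured 141 to 359 FPKM in BMDCs and 0.717 to 14.5 in the tested BMDMs. With it, the BMDC sums and their A1 share would be higher. With DMXAA the Mcl1 share was 72.2 to 77.9% in WT and 75.2 to 77.5% in CRE BMDMs, while the Bcl2a1 share was 19.4 to 24.5% and 12.7 to 15.1%. The sums depend on the effective library size by which FPKM was divided. In WT BMDMs that size was 1.12 times the total count in both controls, and 0.687 and 0.771 times with DMXAA. Sums scaled by total counts would therefore rise less there, whereas shares within a library do not depend on this size. The sums and shares are descriptions of transcript levels, without a test.

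Of the effectors, Bax (ENSMUSG00000003873, chromosome 7, 45461697 to 45466898, minus strand) had the smallest ratio between its highest and lowest group means of the 10. Its libraries measured 52.8 to 74.9 FPKM in the tested BMDMs and 59.4 to 99.3 in BMDCs, and every group overlapped its neighbour in the order of means, from 81.9 down to 57. Its DMXAA changes were −0.16 ± 0.20 in WT BMDMs (adjusted p = 0.582), −0.13 in CRE BMDMs, −0.08 in WT BMDCs and −0.02 in CRE BMDCs, and none was called. Scaled by total counts, Bax was called lower in WT BMDMs (−0.66, adjusted p = 0.0366) and WT BMDCs (−0.45, adjusted p = 0.0489). It also measured 36.4 to 44.4 FPKM in the BMDM libraries numbered 3.

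Bak1 (ENSMUSG00000057789, chromosome 17, 27019810 to 27029009, minus strand), the other effector, responded in BMDMs. It measured 28.8 and 26.5 FPKM in WT controls and 106 and 74.7 with DMXAA (1.60 ± 0.17, adjusted p = 0.000714). In CRE BMDMs it measured 29.2 and 30.5 in controls and 61.0 and 60.7 with DMXAA (2.01-fold, adjusted p = 0.0154). The groups did not overlap under either label. With DMXAA the labels differed by −0.52, which was not called (adjusted p = 0.0755), and the interaction of −0.59 ± 0.24 was not called either (adjusted p = 0.228).

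In BMDCs, Bak1 measured 63.2, 44.4 and 47.4 FPKM in WT controls and 76.5, 54.8 and 61.4 with DMXAA, which overlapped. In CRE it went from 47.9, 40.9 and 45.6 to 58.3, 62.7 and 58.4, which did not. Neither change was called (0.29 ± 0.16, adjusted p = 0.203, and 0.39 ± 0.16, adjusted p = 0.0994), and with the library number as a block within each label both were (0.29, adjusted p = 0.0459, and 0.40, adjusted p = 0.0148). A block on the number shared across labels, which did not pair BMDC libraries of different labels, called neither (adjusted p = 0.17 and 0.0797). The DMXAA response of Bak1 in WT was smaller in BMDCs than in BMDMs (interaction −1.28 ± 0.25, adjusted p = 0.012). Without agonist, WT BMDCs held more Bak1 than WT BMDMs (0.84 ± 0.18, adjusted p = 0.0026).

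Pmaip1 (ENSMUSG00000024521, chromosome 18, 66458604 to 66465550, plus strand), which encodes the BH3-only protein NOXA, a partner of MCL-1, was a transcript of BMDCs in these data. It measured 2.72 and 4.1 FPKM in WT control BMDMs and 26.1, 16.9 and 19.0 in WT control BMDCs (2.54 ± 0.30, adjusted p = 1.43e-05). With DMXAA it reached 76.7, 58.2 and 65.8 in WT BMDCs (1.67 ± 0.26, adjusted p = 0.000656), and in CRE BMDCs it went from 19.2, 34.2 and 17.5 to 63.3, 78.9 and 56.8 (1.47 ± 0.26, adjusted p = 0.00191). All 6 DMXAA-treated BMDC libraries exceeded all 6 controls.

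In BMDMs, Pmaip1 measured 3.31 and 3.27 FPKM with DMXAA in WT, inside the range of its controls, and went from 1.92 and 2.42 to 2.5 and 2.01 in CRE. The estimates were −0.17 in WT (adjusted p = 0.684) and 0.03 in CRE, and the responses of the cell types in WT differed by 1.85 ± 0.40 (adjusted p = 0.021). That interaction was called in 3 of 10 fits that left out 1 library. The libraries numbered 3 held 0 counts of Pmaip1 in 3 cases and 1 count in the other.

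Bbc3 (ENSMUSG00000002083, chromosome 7, 16308393 to 16318205, plus strand), which encodes PUMA, a BH3-only protein and p53 target, was called in 1 of the 4 responses. In CRE BMDCs it went from 14.8, 12.6 and 12.9 FPKM to 20.8, 23.8 and 17.5 (0.59 ± 0.18, adjusted p = 0.0313), and the groups did not overlap. That call held in 1 of 6 fits that left out 1 library, and without both CRE libraries numbered 2 it was lost (0.44, adjusted p = 0.146). In WT BMDCs it measured 19.1, 13.6 and 14.2 in controls and 21.9, 15.3 and 17.9 with DMXAA, which overlapped (0.21 ± 0.18, adjusted p = 0.432).

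In BMDMs, Bbc3 measured 4.63 and 10.3 FPKM in WT controls and 15.0 and 15.8 with DMXAA, and 6.4 and 6.67 against 14.6 and 15.5 in CRE. Both pairs of groups were apart, and neither estimate was called (0.93 ± 0.34, adjusted p = 0.0722, and 1.18, adjusted p = 0.081). The call changed with the test, since DESeq2 called Bbc3 in WT (adjusted p = 0.0212) and in CRE (adjusted p = 0.0135), and limma called it in WT (adjusted p = 0.0322) but not in CRE (adjusted p = 0.0681). With the library number as a block within each label it was called in both (adjusted p = 0.0175 and 0.0236). The WT control numbered 2, the higher of its pair, came from the number whose fibroblast marker sums were 821.8 and 701.9 CPM against 56.8 to 105 in the other tested BMDM libraries, and the part of this in the values was not tested. WT control BMDCs held more Bbc3 than WT control BMDMs (2.01-fold, adjusted p = 0.00927).

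Bcl2l11 (ENSMUSG00000027381, chromosome 2, 128126038 to 128162547, plus strand), which encodes BIM, the BH3-only protein linked to death after growth factor withdrawal, was not called in any of the 4 responses. It measured 7.37 and 5.36 FPKM in WT control BMDMs and 8.32 and 6.16 with DMXAA, and 7.05 and 6.58 against 11.3 and 10 in CRE (0.62 ± 0.20, adjusted p = 0.101). The CRE change was called with a block within each label (adjusted p = 0.00887), with a block on the shared number (adjusted p = 0.0384) and without a filter (adjusted p = 0.0204). DESeq2 (adjusted p = 0.0542) and limma (adjusted p = 0.108) did not call it. With DMXAA, CRE exceeded WT BMDMs by 0.61 ± 0.20, not called (adjusted p = 0.0783). The CRE groups were apart and the WT groups overlapped. In BMDCs it went from 3.61, 4.88 and 4.74 to 6.94, 6.96 and 7.82 in WT, without overlap, and from 5.33, 2.55 and 4.91 to 8.15, 3.5 and 6.62 in CRE, with overlap.

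The BMDC estimates for Bcl2l11 were 0.69 ± 0.32 in WT (adjusted p = 0.128) and 0.49 ± 0.32 in CRE (adjusted p = 0.307). With the library number as a block within each label, which compares each DMXAA library with the control of its number, they were called in WT (0.70, adjusted p = 0.000966) and in CRE (0.48, adjusted p = 0.01). With a block on the number shared across labels neither was called (adjusted p = 0.127 and 0.288), but a shared number did not pair BMDC libraries of different labels. The CRE libraries numbered 2 held the lowest Bcl2l11 of their groups. With the block within each label, 8 members were called in WT BMDCs (48.7% of genes) and 9 in CRE BMDCs (42.7%), Bak1 and Bcl2l11 being added in WT and these and Bcl2a1b (0.59, adjusted p = 0.0232) in CRE.

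**Figure D4:**
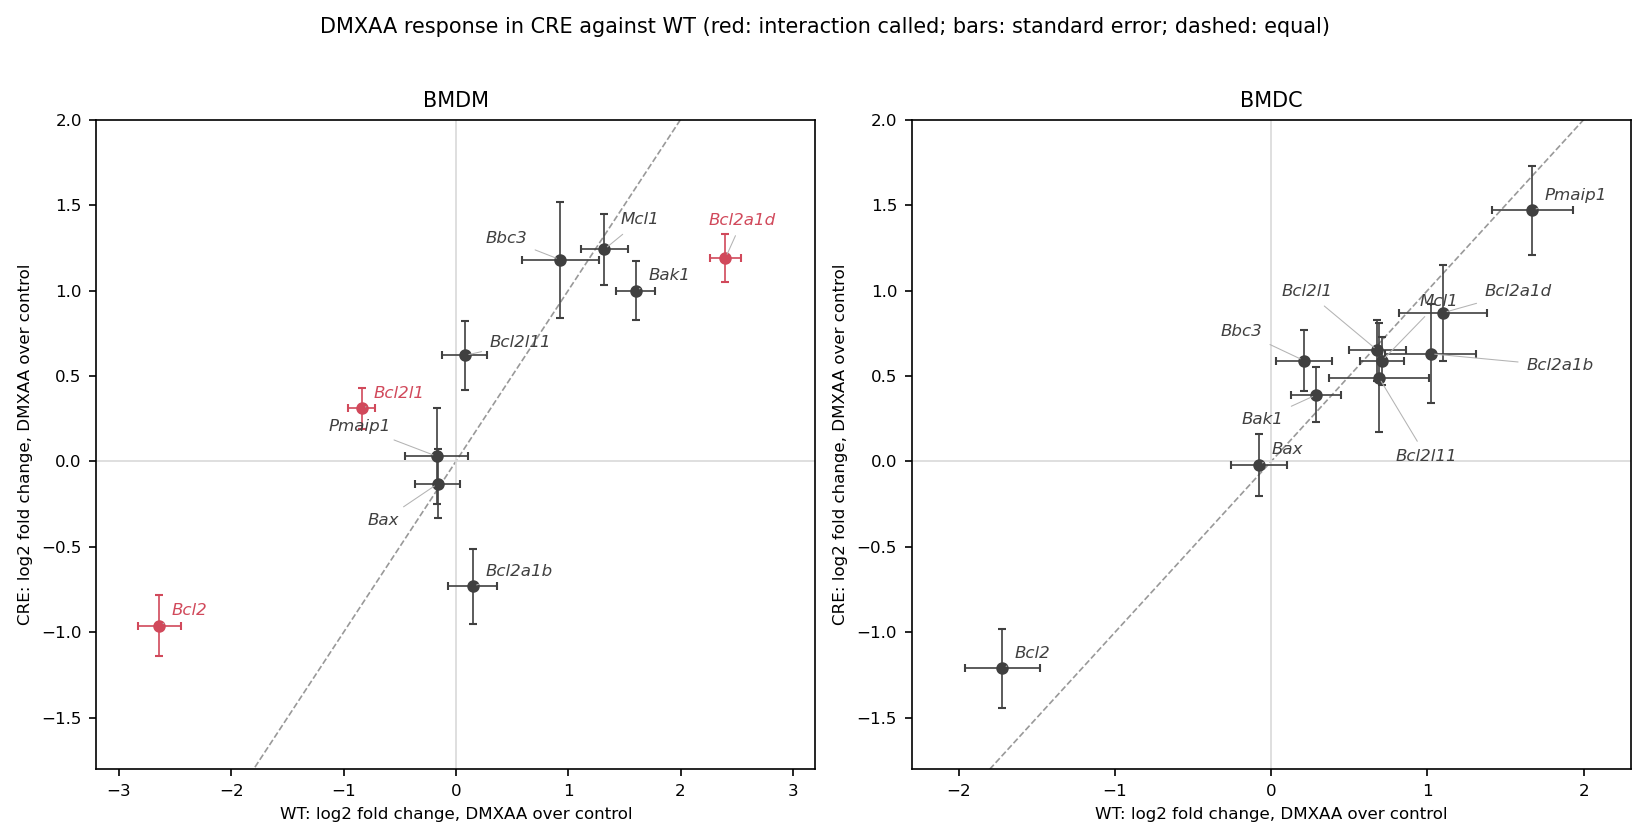
DMXAA response of each member under the CRE label (vertical axis, log2) against the WT label (horizontal axis, log2) in BMDMs and BMDCs, with a dashed line of equal response and bars of 1 SE. Bcl2, Bcl2l1 and Bcl2a1d, drawn in red, are the members whose responses differed between the labels by the interaction test, in BMDMs.

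The comparison of the genotype labels asked whether the response of the family depended on STING. With DMXAA, 3 of 10 members differed between CRE and WT BMDMs, against 19.2% of genes (9.26% higher, 9.99% lower): Bcl2 (1.77 ± 0.19, adjusted p = 0.00236) and Bcl2l1 were higher in CRE, and Bcl2a1d was lower (−1.51 ± 0.14, adjusted p = 0.00153). Without agonist, edgeR called 0 of 10 members and 0.0432% of genes, with 2 members at an unadjusted p under 0.05, of which Bcl2a1b had the smaller (0.66 ± 0.22, adjusted p = 0.699). DESeq2 and limma also called 0 members there. The interaction of genotype label and DMXAA was called for the same 3 members (3.66% of genes, 1.38% higher and 2.28% lower), and for Bcl2a1b it was −0.88 ± 0.31 (adjusted p = 0.176).

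These BMDM calls rest on 2 libraries per group. The 2 CRE libraries of a group were very close (median chi-square over sampling noise of 1.99 for controls and 3.05 with DMXAA). The WT pairs were at 29.6 and 18.5. Whether the CRE pairs came from separate cultures is not given, so their spread may be technical. The interactions of all 3 members were lost when any CRE library was left out, Bcl2 also without WT DMXAA 1, and in CRE BMDMs the DMXAA calls of Bcl2, Mcl1 and Bak1 were lost without any 1 of the 4 libraries and that of Bcl2a1d without either control. With all 12 BMDM libraries, edgeR called 0 members and 0 of 12980 genes in each of the 5 BMDM comparisons. In that fit 2 members (1229 genes) had an unadjusted p under 0.05 for the WT response, and 0 members for the other 4 comparisons (283 genes for the CRE response, 450 and 41 for CRE against WT with and without DMXAA, and 57 for the interaction). The WT estimates were then −1.56 ± 0.53 for Bcl2 (adjusted p = 0.354), 1.35 ± 0.50 for Bak1 (adjusted p = 0.402), 1.31 ± 1.14 for Mcl1 and 2.48 ± 2.74 for Bcl2a1d.

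Within the libraries numbered 3 alone, the log2 ratios of DMXAA to control lay between −0.28 and 0.26 for the members with measurable counts, with 1 library per group and no test. Mcl1 there measured 44.5 FPKM in the WT control and 39.8 with DMXAA, and 47.9 and 41.1 under the CRE label. Bcl2l1 measured 16.9 and 17.4 in WT and 11.4 and 12.6 in CRE. Bak1 measured 24.9 and 23.9 in WT and 32.2 and 28.3 in CRE. Mcl1 and Bcl2l1 were thus below all 8 other BMDM libraries with either treatment, and Bak1 lay below all 4 other DMXAA-treated BMDM libraries.

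In BMDCs, the labels were not told apart at any member. With DMXAA, without it, and for the interaction, edgeR called 0 members and 0 of 12126 genes, 0 members had an unadjusted p under 0.05, and 108, 99 and 60 genes did. DESeq2 and limma called 0 members as well. With DMXAA, the estimate was 0.22 for Bcl2 (95% interval −0.29 to 0.73), −0.05 for Bcl2l1 (−0.45 to 0.35), −0.35 for Bcl2a1b (−0.99 to 0.29) and −0.00 for Pmaip1 (−0.56 to 0.56). Intervals of this width do not show that the labels acted alike, and the CRE libraries that lay nearest to WT libraries were part of each comparison.

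Between the cell types without agonist, 7 of 10 members differed in WT, against 28.5% of 13368 genes (13.1% higher, 15.4% lower). Bcl2 (1.37 ± 0.24, adjusted p = 0.000551), Bcl2a1b (1.71 ± 0.33, adjusted p = 0.00102), Bcl2a1d, Bak1, Bbc3 and Pmaip1 were higher in BMDCs and Bcl2l1 was lower (−0.95 ± 0.17, adjusted p = 0.000704). Bax (0.16 ± 0.20, adjusted p = 0.614) and Bcl2l11 (−0.58 ± 0.32, adjusted p = 0.192) were not called. All 7 calls were made in each fit that left out 1 library, but with all 12 BMDM libraries 1 member was called, Bcl2 (1.57, adjusted p = 0.0238), beside 8.26% of genes. The interaction of cell type and DMXAA was called for 3 members (2.61% of genes, 0.883% higher and 1.73% lower), namely Bcl2l1, Bak1 and Pmaip1, and for Bcl2a1d it was −1.27 (adjusted p = 0.114). DESeq2 called Bcl2a1d for it (−1.34, adjusted p = 0.0215), and a block on the library number within each label called both Bcl2a1d (−1.28, adjusted p = 0.00498) and Bcl2l11 (0.65, adjusted p = 0.0256). With all 12 BMDM libraries edgeR called 0 members and 0 genes for it, with 0 members and 391 genes at an unadjusted p under 0.05.

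By the order of group means, Bcl2l1 was highest in CRE DMXAA BMDMs (52 FPKM), apart from CRE control BMDMs (41.2), and lowest in CRE control BMDCs (19.8), which overlapped WT control BMDCs (20.2). Bcl2a1d ran from 793 FPKM in WT DMXAA BMDCs to 18.9 in CRE control BMDMs, and Bcl2a1b from 225 in WT DMXAA BMDCs to 31.7 in CRE DMXAA BMDMs. Bak1 ran from 90.5 in WT DMXAA BMDMs to 27.7 in WT control BMDMs. Bbc3 ran from 20.7 to 6.53, Pmaip1 from 66.9 to 2.17 and Bcl2l11 from 10.6 in CRE DMXAA BMDMs to 4.26 in CRE control BMDCs.

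**Figure D5:**
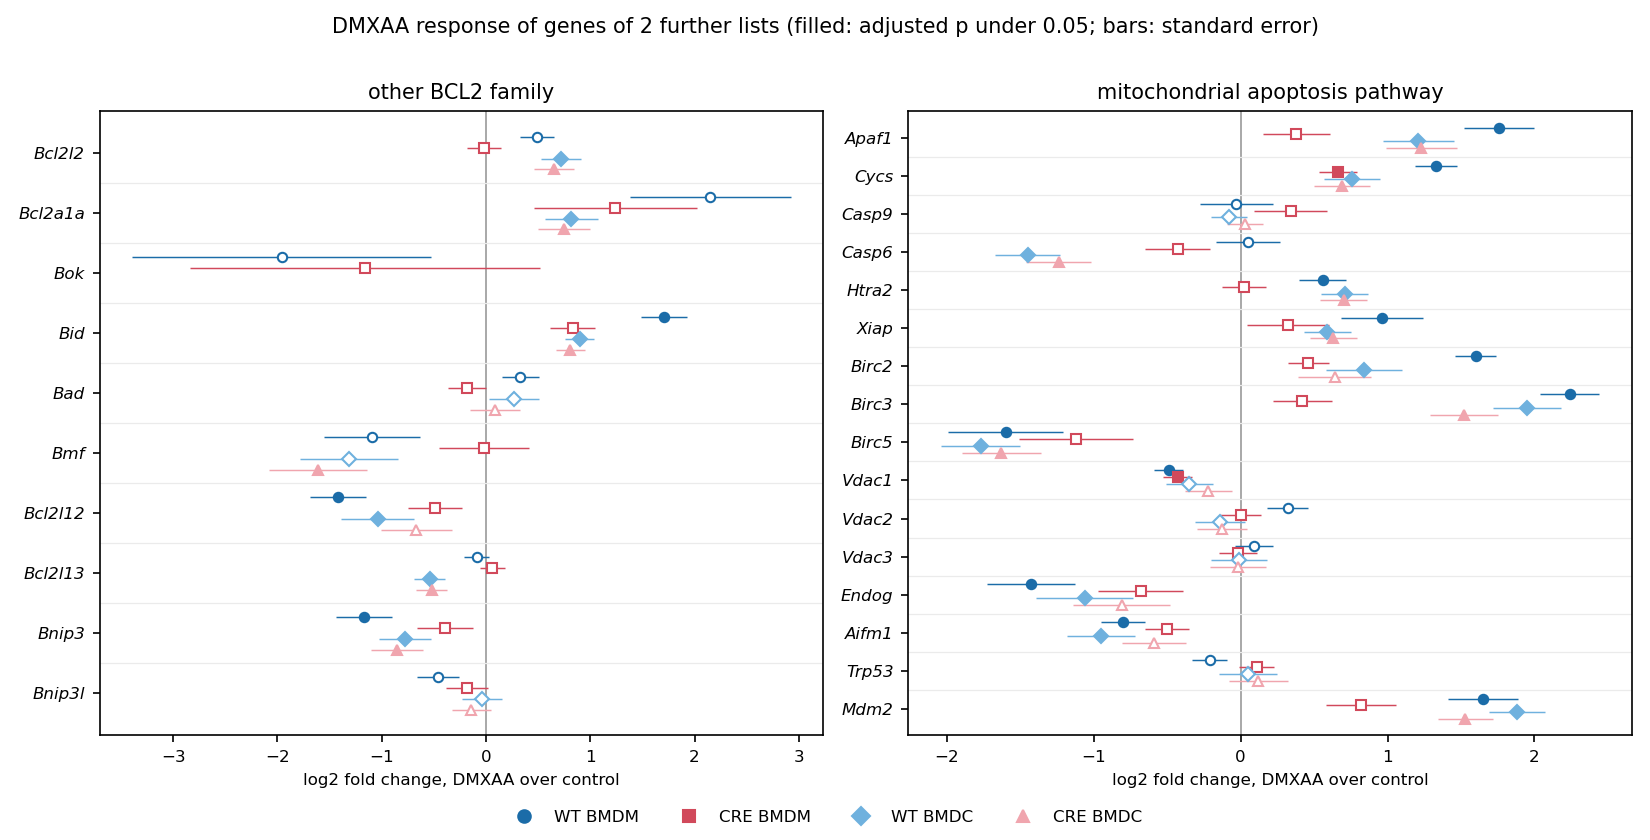
Log2 fold change with DMXAA of genes of 2 other lists, the rest of the BCL2 family and the mitochondrial apoptosis pathway, in WT and CRE BMDMs and BMDCs. Bars are 1 SE, filled points passed the test, and Birc3 lies farthest to the right of the pathway genes shown in WT BMDMs.

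Other BCL2 family genes formed a list of 16, of which 10 could be tested in BMDMs and 9 in BMDCs. In WT BMDMs 1 rose and 2 fell: Bid, a BH3-only gene whose protein is cleaved by caspase-8, went from a mean of 16.3 to 57.7 FPKM (1.71 ± 0.22, adjusted p = 0.00155), while Bcl2l12 (−1.42 ± 0.27, adjusted p = 0.00701) and Bnip3, a mitophagy receptor (−1.17 ± 0.27, adjusted p = 0.0153), fell. The list's median change was −0.28, against −0.08 for all genes, of which 18.4% were called higher and 20.7% lower. In CRE BMDMs edgeR called 0 of 10, beside 10% of genes, with 1 at an unadjusted p under 0.05 (median −0.10, against −0.01). With DMXAA, CRE BMDMs held less Bid (−1.36 ± 0.22, adjusted p = 0.00868) and more Bmf, another BH3-only gene (1.83 ± 0.46, adjusted p = 0.0364), than WT BMDMs, in a comparison that called 19.2% of genes.

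In BMDCs 3 of the 9 rose and 3 fell under either label, beside 32.2% of genes called in WT and 25.4% in CRE. The medians were −0.04 in WT and −0.14 in CRE against 0.01 and −0.01 for all genes. Bid rose in WT (0.90 ± 0.14, adjusted p = 0.000501) and in CRE (0.81 ± 0.14, adjusted p = 0.00126). Bcl2a1a, a further A1 copy, rose in WT (0.82 ± 0.25, adjusted p = 0.0253), where Bcl2l12 fell (−1.04 ± 0.35, adjusted p = 0.0396). In CRE, Bmf (−1.61 ± 0.47, adjusted p = 0.0273) and Bnip3 (−0.85 ± 0.25, adjusted p = 0.0288) fell. Between the cell types without agonist, Bcl2a1a showed the difference of its copies, with a mean of 174 FPKM in WT BMDCs and 2.82 in WT BMDMs (5.88 ± 0.58, adjusted p = 2.54e-06), and Bmf was higher in BMDCs (2.14 ± 0.54, adjusted p = 0.00751) where Bid was lower (−0.68 ± 0.16, adjusted p = 0.0053).

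The mitochondrial apoptosis pathway list, as described here, held 17 genes downstream of the BCL2 family or controlling it, 16 of them tested within each cell type. In WT BMDMs 7 rose and 4 fell, beside 18.4% and 20.7% of all genes (median 0.21, against −0.08 for all genes). Birc3, which encodes the inhibitor of apoptosis protein cIAP2, went from a mean of 6.41 to 32.7 FPKM (2.24 ± 0.20, adjusted p = 0.000364), Apaf1, the apoptosome scaffold gene, from 4.94 to 18.1 (1.76 ± 0.24, adjusted p = 0.00188), and Mdm2, the p53 ubiquitin ligase gene, from 31.8 to 108 (1.65 ± 0.24, adjusted p = 0.00251). In CRE BMDMs 1 rose and 1 fell, beside 7.28% and 2.72% of genes (median 0.06, against −0.01). Cycs, encoding cytochrome c, rose (0.66 ± 0.13, adjusted p = 0.029) and the outer membrane channel gene Vdac1 fell (−0.43 ± 0.10, adjusted p = 0.0468).

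With DMXAA, 6 of the 16 were lower in CRE than in WT BMDMs and 0 higher (median −0.43, against 0.01). Of all genes, 9.99% were lower and 9.26% higher. The 6 included Birc3, with means of 6.78 and 32.7 FPKM (−2.22 ± 0.20, adjusted p = 0.00155), Apaf1, with 6.12 and 18.1 (−1.51 ± 0.24, adjusted p = 0.00796), and Mdm2, with 40.6 and 108 (−1.36 ± 0.24, adjusted p = 0.0116). The interaction was called for 2, beside 3.66% of genes, namely Birc3 (−1.82 ± 0.28, adjusted p = 0.0268) and Birc2, the gene of cIAP1 (−1.14 ± 0.19, adjusted p = 0.034). Genes that promote and genes that restrain caspases were thus both among those lower in CRE.

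In BMDCs the pathway list showed 7 higher and 4 lower in WT (median 0.02, against 0.01), beside 17.0% and 15.2% of all genes. Under the CRE label 6 were higher and 2 lower (median 0.08, against −0.01), beside 14% and 11.4% of genes. Mdm2 rose from a mean of 28.2 to 106 FPKM in WT (1.88 ± 0.19, adjusted p = 3.04e-05) and from 32.4 to 95.1 in CRE (1.53 ± 0.19, adjusted p = 0.000159). Birc3 rose in WT (1.95 ± 0.23, adjusted p = 9.19e-05) and in CRE (1.52 ± 0.23, adjusted p = 0.000605). Birc5, the mitotic gene of survivin, fell in WT (−1.77 ± 0.27, adjusted p = 0.000566) and in CRE (−1.63 ± 0.27, adjusted p = 0.00129). Without agonist, 4 genes were higher and 1 lower in WT BMDCs than BMDMs, beside 13.1% and 15.4% of all genes. They were led by Casp6 (2.33 ± 0.25, adjusted p = 5.47e-06) and Birc2 (1.09 ± 0.25, adjusted p = 0.00441), with Htra2 lower (−1.12 ± 0.17, adjusted p = 0.000116). Casp6 was the gene called for the interaction of cell type and DMXAA (−1.48 ± 0.33, adjusted p = 0.0251), beside 2.61% of genes.

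Genes most like each member were found by Pearson's r of log2(FPKM + 1) over the 20 libraries without the BMDM libraries numbered 3, among 11223 genes. These libraries share cell type and treatment, which many genes follow, so the values are descriptions. Bcl2 was most like Scd2 (r = 0.975), Add3 (0.971) and P2ry1 (0.970). Bcl2a1d was most like Plac8 (0.983), Serpina3g (0.981) and its copy Bcl2a1a (0.978), whereas Bcl2a1b was most like Guk1 (0.976). Pmaip1 was most like Cd80 (0.992), Cd226 (0.988) and Il1a (0.985), and Mcl1 like Pou3f1 (0.969). For the others the highest r was 0.950 for Bcl2l11 with Slc6a6, 0.942 for Bax with Polr1d, 0.938 for Bak1 with Nsmaf, 0.900 for Bbc3 with Gm5424 and 0.835 for Bcl2l1 with Tctn3, the lowest of the set.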

How the data were processed

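RNA-seq of 24 polyA libraries was analysed from the deposited gene table. The authors deposited raw counts per gene, and FPKM values in which the authors divided by gene length and an effective library size. That size was 0.687 to 1.33 times the total count and tended to be lower with DMXAA. The deposited log2 fold changes and p-values of the authors' own comparisons, and their group means, were not used. Per the submitters' processing notes, CASAVA 1.8, fastp, HISAT2 2.0.5, featureCounts 1.5.0-p3 and DESeq2 1.20.0 were used with GRCm38. Whether counting used strand is not given in the sources used here. Columns were matched to libraries by title (48 matched, 0 unmatched).

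Counts were tested in R 4.3.3 with edgeR 4.0.16 (glmQLFit and glmQLFTest, TMM scaling), two-sided, with Benjamini-Hochberg adjustment over all genes tested and a call at an adjusted p under 0.05. The BMDM fit held the 8 libraries numbered 1 and 2, the BMDC fit 12 libraries and the cell type fit 20. A gene was tested if 2 or more libraries of the fit (3 in BMDCs) reached 1 FPKM. The 12 comparisons were also run with DESeq2 1.42.0 and limma 3.58.1 on log2(FPKM + 1), other scalings and filters, replicate blocks, and each library left out. Total count scaling, fits of the compared groups only, leaving out both CRE BMDC libraries numbered 2 and the summed Bcl2a1 reads were chosen after seeing the data. Fits were tested on simulated data. Marker lists were summed as CPM, and 0 counts were read against a floor of 3 counts.

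The numbers paired BMDC control and DMXAA libraries of the same label: deviations from the group means correlated at 0.41 to 0.66 in WT and 0.54 to 0.69 in CRE. Across labels they did not: WT and CRE BMDC controls numbered 1, 2 and 3 correlated at −0.45, −0.49 and −0.17. The members and gene lists were chosen with earlier results of these data known. Some genes of the pathway list are not reported here and were left out of its counts and medians. The genes named are the members, up to 3 called genes of each other list per comparison with the largest absolute log2 change (mean of 1 FPKM or more in either group), and the 3 genes most like each member. Figures were drawn with matplotlib 3.10.9 in Python 3.11.15, and transcripts were aligned with Biopython 1.88. The 95% intervals of log2 changes come from the edgeR quasi-likelihood test and include the spread between the libraries fitted.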

Additional observations from a re-analysis of the deposited data

Results flagged for a closer look

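In BMDMs, the DMXAA responses of 3 members differed between the genotype labels by an interaction term in edgeR: Bcl2 by 1.68 and Bcl2l1 by 1.15, both higher under CRE, and Bcl2a1d by −1.21, lower under CRE. Each effect was seen with 2 libraries per group, and all 3 calls were lost without any CRE library. The 3 Bcl2a1 genes summed gave −1.43.

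Between BMDMs and BMDCs of the WT label, the responses differed for Bcl2l1 by 1.54, for Bak1 by −1.28 and for Pmaip1 by 1.85, where a positive value is a larger response in BMDCs. Bcl2l1 moved in opposite directions, while Bak1 was called in BMDMs and Pmaip1 in BMDCs. The Bcl2l1 interaction was called in 10 of 10 fits that left out 1 library, that of Bak1 in 9 and that of Pmaip1 in 3.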

How the results depend on the processing

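Over the alternatives, 176 recomputed counts of called members stayed within 1.5 times the main count and 30 did not, and no called member changed direction. The tally includes comparisons with 0 members in the main fit and in every alternative, where a ratio says nothing about stability. These were CRE against WT in control BMDMs (14 alternatives), and in BMDCs with DMXAA (16), without it (16) and for the interaction (23). With all 12 BMDM libraries 0 members were called in the BMDM comparisons and for the cell type interaction, and 1 between cell types. At an adjusted p under 0.01, 1 was called in CRE BMDMs (406 of 11569 genes), 0 for the BMDM interaction (11 genes), 3 in WT BMDCs (2422 of 12126 genes), 2 in CRE BMDCs (1758 genes) and 1 for the cell type interaction (119 of 13368 genes). CRE BMDCs had 2 under the study's rule (an absolute log2 change of at least 1 with an unadjusted p of at most 0.05, met by 2138 genes), under total count scaling and in a fit of the compared groups only. CRE BMDMs had 7 without a filter on low values (2120 of 23641 genes). They had 8 in a fit of the compared groups only, where the biological coefficient of variation was 5.16%, against 34.8% in WT BMDMs. In their own fit of the compared groups, WT BMDMs had 4 members and 1687 genes called, fewer than the 6389 genes in CRE BMDMs. Leaving out each library in turn gave 4 to 6 members in WT BMDCs (2957 to 3367 of 12126 genes) and 3 to 5 in CRE BMDCs (2170 to 3511 genes). Leaving out a tested BMDM library left 1 library in its group, so counts from those fits are not given. The BMDM interactions and CRE responses lost in such fits are described above. limma did not call Bcl2 for the BMDM interaction (adjusted p = 0.177).

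In BMDMs (2 pairs per label), deviations of same-numbered control and DMXAA libraries correlated at 0.68 in WT and 0.03 in CRE. The WT value lay in the range of the BMDC values and the CRE value did not. Blocking on the number lowered the biological coefficient of variation from 34.8% to 17.8% in WT BMDMs and from 5.16% to 4.6% in CRE BMDMs. A replicate block within genotype gave 6 members in WT BMDMs (6109 of 11569 genes) and 8 in CRE BMDMs (2920 genes). It gave 5 for the cell type interaction (1465 of 13368 genes), and 8 and 9 in WT and CRE BMDCs (5911 and 5181 of 12126 genes). It lost no main call. A replicate block on the number shared across genotypes lost Bcl2a1d in CRE BMDCs (adjusted p = 0.0557) and Bbc3 between cell types (adjusted p = 0.055).

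Over the alternatives, the called genes ranged from 0 to 6849 in WT BMDMs (main 4531), 0 to 6389 in CRE BMDMs (1157), 0 to 3630 for CRE against WT with DMXAA (2227), 0 to 700 without it (5), 0 to 1702 for the interaction (424), 2422 to 5911 in WT BMDCs (3904), 1758 to 5181 in CRE BMDCs (3084), 1191 to 4544 between cell types (3812) and 0 to 1465 for the cell type interaction (349).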
